A study of Mus musculus with 148 samples.

Results

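The MHC class II genes are 8 rows, of 52634 gene rows in the count tables, that carry the mouse class II antigen presentation machinery: H2-Aa, H2-Ab1, H2-Eb1, Cd74, H2-DMa, H2-DMb1, H2-DMb2 and Ciita. They were chosen by name, and all 8 were present on each of the 148 plates. Single immune cells had been sorted into 384-well plates and their RNA tagged with unique molecular identifiers (UMIs) at the 3′ end. All animals were female C57BL/6 mice carrying PA-GFP, a photoactivatable green fluorescent protein that lets cells of an illuminated niche be recovered by sorting. Except for the 3 Control mice, which received no tumor cells, mice were injected at 8 weeks of age into a mammary gland with EO771-tdTomato cells, a mouse mammary carcinoma line with a red fluorescent protein.

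Tumors were resected 3 weeks after injection, and lungs were followed until metastases appeared. The 63 samples, each 1 tissue of 1 of 27 mice, comprised Control lungs (3), Relapse-free lungs without metastases (6), Pre-MET lungs taken before metastases (3), Primary tumor (4), Distal normal lung away from lesions (14), Metastasis (13), MET Core (13) and MET Invasive margin (7). Cells were sorted as CD31-CD45+ or, for most core and margin plates, as CD31- cells with activated GFP and no CD45 gate, so that core and margin differ from the other tissues in their gate as well as their place. Relapse-free mice 6 and 7 had plates of both activated and non-activated cells. The lungs of relapse-free and metastatic mice came from animals whose tumor had been resected, while Pre-MET lungs and primary tumors came from mice that still carried it. Mice 8, 9 and 10 gave both a Pre-MET lung and a primary tumor, and mouse 38 gave a tumor only. The authors' annotation gave 23425 immune cells 1 of 27 labels. Cells of 1 label from 1 sample were summed where there were at least 10, which gave 510 sums over 26 labels, and levels are CPM, a gene's UMIs per 1000000 UMIs of the sum. Samples held 55 to 1974 immune cells with a median of 629 to 3689.5 UMIs per cell, highest in primary tumors (1972 to 3689.5).

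Class II molecules are heterodimers of an α and a β chain that present peptides from the endosomal pathway to CD4+ T cells, and they are made mainly by dendritic cells, B cells and activated macrophages. The invariant chain, encoded by Cd74, fills the binding groove during transport. H2-DM, a dimer of H2-DMa with a β chain from H2-DMb1 or H2-DMb2, then exchanges its last fragment, CLIP, for antigenic peptide. Ciita is the transactivator that, bound to a complex on the conserved X and Y boxes of their promoters, turns the whole group on, and interferon-γ induces it in macrophages. C57BL/6 mice carry an H2-Ea pseudogene, so that H2-Eb1 has no α chain partner at the surface.

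In GENCODE vM21 (GRCm38, the mm10 build of the files), 6 of the 8 genes lie in the major histocompatibility complex on chromosome 17: H2-DMa (34119541 to 34139101, + strand), H2-DMb2 (34143307 to 34151555, +), H2-DMb1 (34153072 to 34160230, +), H2-Ab1 (34257689 to 34269419, +), H2-Aa (34282744 to 34287823, −) and H2-Eb1 (34305867 to 34316674, +). Ciita lies on chromosome 16 (10480059 to 10528418, +). On the opposite strand Ciita overlaps Dexi (482 UMIs in all wells, against 2035 of Ciita) and H2-DMa overlaps Brd2 (4901 against 17976), and whether reads of the shared stretches were assigned by strand was not checked here. Promoter sequences were at hand for 5 of the 8, from RefSeq (GRCm38.p6), and the 4 shown are those that held the Y box, 3 of them with the X box core upstream of it on the same strand, with capitals marking the Y box TGATTGG and the X box core ACNGATG.
H2-Aa, chr17:34287854-34287918, − strand: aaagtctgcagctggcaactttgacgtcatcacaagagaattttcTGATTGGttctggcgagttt
H2-Eb1, chr17:34305761-34305825, + strand: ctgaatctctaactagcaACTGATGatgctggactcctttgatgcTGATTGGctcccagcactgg
H2-DMb1, chr17:34153083-34153147, + strand: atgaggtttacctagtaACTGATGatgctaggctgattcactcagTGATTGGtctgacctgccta
H2-DMb2, chr17:34145112-34145176, + strand: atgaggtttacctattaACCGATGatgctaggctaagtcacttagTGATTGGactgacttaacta

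The Y box began 50 bases before the RefSeq start site in H2-Aa, 61 in H2-Eb1, 63 in H2-DMb1 and 92 in H2-DMb2, and the X box core 88, 91 and 120 bases before it in the last 3. In H2-DMb1 and H2-DMb2 the windows lie inside the GENCODE gene spans given above, since these RefSeq start sites lie downstream of the GENCODE gene starts. Both strands of the 300 base promoters were searched with these letters, which were chosen after the promoters had been seen. Of 32851 RefSeq mouse promoters, 7.82% held the Y box, 9.85% the X box core and 0.703%, or 231 promoters, both. The H2-Aa promoter also held the X box letters on its opposite strand, 232 bases before the start. The letters were not found in the windows of the 2 H2-DMa promoters, which says only that these spellings are not there. The H2-DMb1 and H2-DMb2 windows are near copies of each other, as the genes are paralogs.

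H2-Ab1 was highest in conventional dendritic cells. Type 2 conventional dendritic cells (label cDC2) held 27467 CPM ± 6850 of H2-Ab1 (SD, n = 16 sums) and type 1 (cDC1) 25437 ± 5680 (n = 5). Macrophages labelled Mac Cd81 followed with 15670 ± 4348 (n = 9), monocytes labelled Mon MHC-II with 14259 ± 5271 (n = 23) and B cells with 10096 ± 2703 (n = 30). All 8 genes together took 5.83% ± 1.72 of all UMIs in cDC2, 4.71% ± 0.901 in cDC1, 3.53% ± 1.11 in Mac Cd81, 3.24% ± 1.50 in Mon MHC-II and 2.69% ± 0.717 in B cells. The labels came from clustering these cells on their expression, in which these genes may have taken part, so differences between labels are a description and carry no test.

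**Figure D1:**
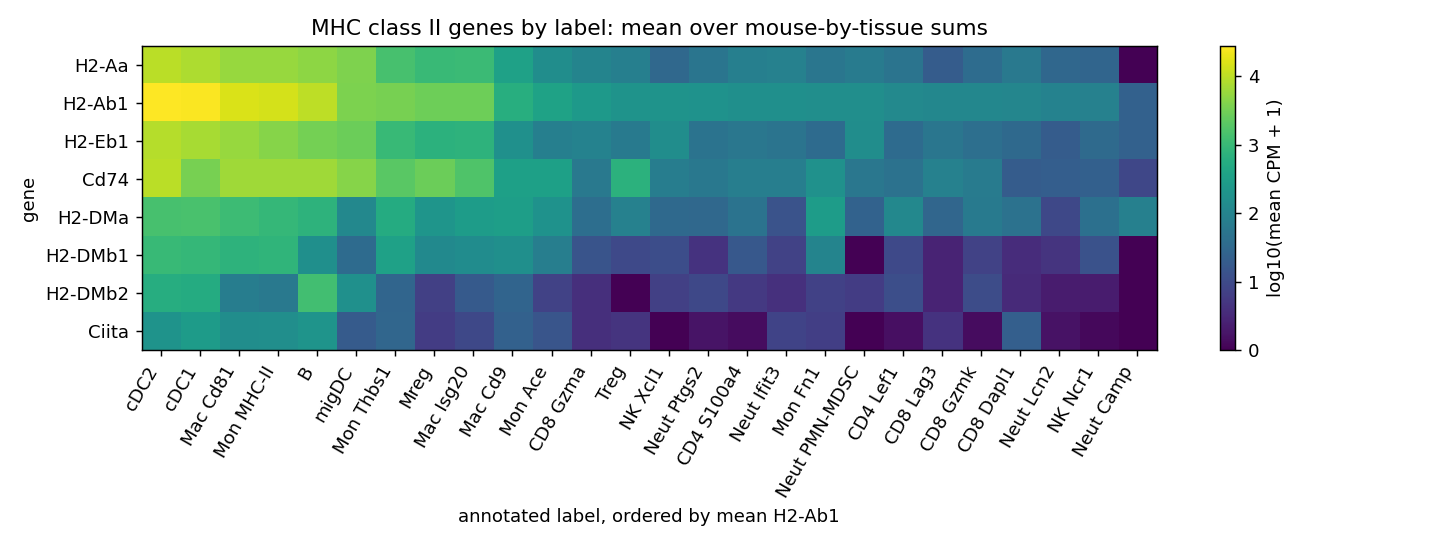
Mean level of the 8 MHC class II genes in 26 labels, as log10 of mean CPM plus 1 over the sums of each label. The 5 labels cDC2, cDC1, Mac Cd81, Mon MHC-II and B are high in every gene except H2-DMb1 (low in B) and H2-DMb2 (low in Mac Cd81 and Mon MHC-II).

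H2-Aa, the α chain that pairs with H2-Ab1, followed the same order, with 9417 ± 2431 CPM in cDC2, 7802 ± 2147 in cDC1, 5649 ± 2250 in Mac Cd81, 5574 ± 1966 in Mon MHC-II and 4789 ± 1245 in B cells. H2-Eb1 stood at 8875 ± 2441, 7340 ± 1478, 5599 ± 1818, 4303 ± 1937 and 3294 ± 755 in these labels. Across the 26 labels the mean log2 levels of H2-Aa and H2-Ab1 correlated with r = 0.985, as a description over labels that share samples, plates and the clustering. In the 9 samples that had sums of both, cDC2 exceeded B cells in H2-Ab1, H2-Aa, H2-Eb1 and H2-DMb1 in 9 of 9, with a mean log2 ratio for H2-Ab1 of 1.51 ± 0.45 (SD).

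Neighbours in these orders were mostly not separated. Of 25 pairs of neighbouring labels, 2 differed by more than the larger of their SDs in H2-Ab1 and in H2-DMb2, 1 in H2-Aa, H2-Eb1, Cd74 and H2-DMb1, and 0 in H2-DMa and Ciita. In no pair were the ranges of the sums apart. The 5 cDC1 sums spread from 17252 CPM of H2-Ab1 (relapse-free mouse 6) through 24225 (core, mouse 30), 25412 (margin, mouse 17) and 27299.5 (control, mouse 2) to 32994 (relapse-free mouse 7), within the 14647 to 40756 of the 16 cDC2 sums (median 27517).

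**Figure D2:**
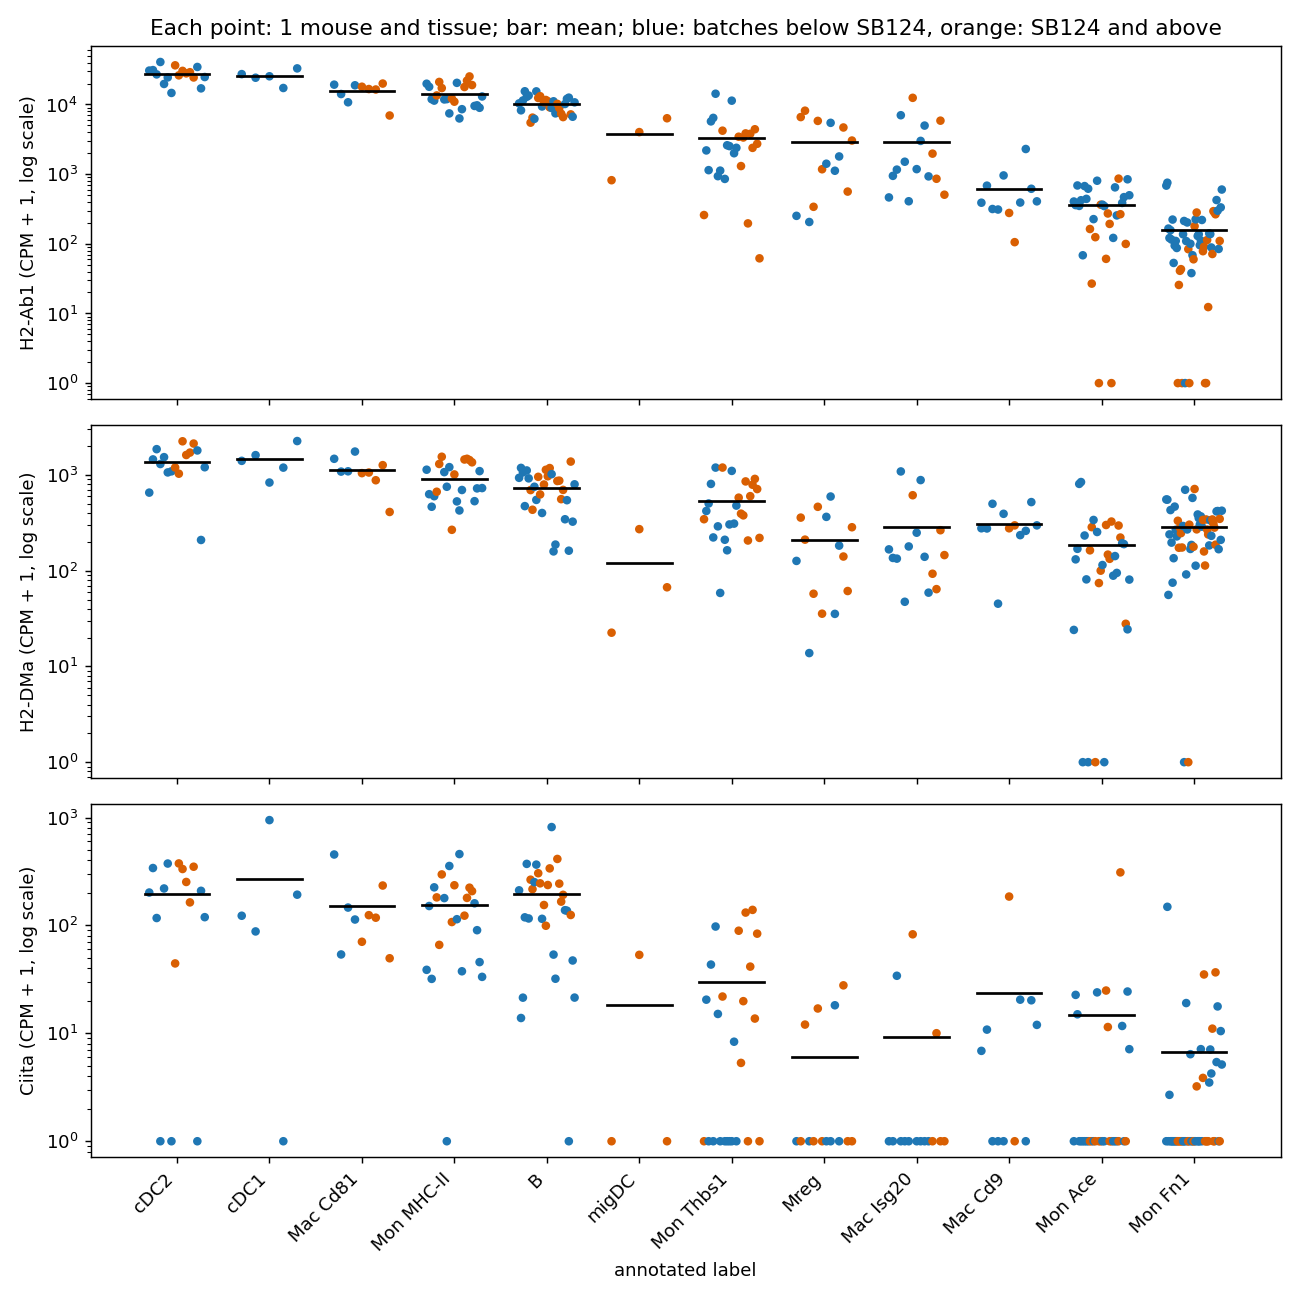
H2-Ab1, H2-DMa and Ciita in single sums of 12 myeloid, dendritic and B cell labels, on a log axis of CPM. Each point is the cells of 1 label in 1 tissue of 1 mouse, and bars are means. H2-Ab1 runs from cDC2 (14647 to 40756 CPM) to Mon Fn1 with wide overlap between neighbours, and Ciita is at 0 in part of the sums of most labels.

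Below the 5 labels the levels fell by degrees rather than to 0. Migratory dendritic cells (migDC) held 3726 ± 2775 CPM of H2-Ab1 (n = 3), Mon Thbs1 3340 ± 3315 (n = 25), Mreg 2898 ± 2707 (n = 14), Mac Isg20 2882 ± 3381 (n = 15), Mac Cd9 613 ± 604 (n = 11), Mon Ace 356 ± 249 (n = 32) and Mon Fn1 156 ± 160 (n = 54). The SDs of Mon Thbs1, Mreg and Mac Isg20 were about as large as their means. The T, NK and neutrophil labels, 14 in all, had label means of 23.2 to 250 CPM, and mouse T cells do not make class II, so this range is taken as the background. Of wells that had received no cell, 20 of 592 held an H2-Ab1 UMI (3.38%, 95% exact binomial interval 2.08 to 5.17; all intervals given cover counting error only). No such well held a UMI of H2-DMb2 or Ciita, and a count of 0 in 592 wells allows up to 0.621% by the same method.

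The share of cells with an H2-Ab1 UMI, after every cell was thinned to 500 UMIs, was 98.0% in cDC1, 89.6% in Mon MHC-II, 87.8% in Mac Cd81, 87.6% in cDC2 and 83.7% in B cells. As counted these shares were 100%, 98.1%, 95.8%, 90.2% and 89.3%, at median depths of 1533.5, 2166, 2327, 1584 and 1001 UMIs. In the T and NK labels together, 6.83% of 9356 cells held one after thinning and 13.9% as counted, at a median of 999 UMIs. Mon Fn1, at 6.32% (5.48 to 7.24), was at that background in H2-Ab1 but not in H2-DMa, of which 9.27% of its cells held a UMI against 2.05% in T and NK cells. Intermediate shares were measured in plasmacytoid dendritic cells (pDC, 45.2% of 73 cells, too few in any sample for a sum), migDC (41.0%), Mreg (35.2%), Mac Isg20 (32.2%) and Mon Thbs1 (29.1%).

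Migratory dendritic cells held less of all 8 genes than cDC2, though for H2-DMb2 (167 CPM) their mean ranked 4 of 26 labels. The label fits its markers, with 4139 CPM of Ccr7, the receptor that guides dendritic cells to lymph nodes, and 1917 CPM of Fscn1, while Cd209a was at 0. H2-Ab1 was 818 CPM in the primary tumor of mouse 10, 4015 in that of mouse 38 and 6345 in that of mouse 9, all 3 below the lowest of the 16 cDC2 sums. In these 3 samples every one of the 8 genes was lower in migDC than in cDC2, by mean log2 ratios that fell by 1.71 ± 1.13 for H2-Aa, 3.32 ± 1.70 for H2-Ab1, 2.10 ± 0.85 for H2-Eb1, 2.24 ± 0.78 for Cd74 and 4.73 ± 2.05 for H2-DMa (SD, n = 3). In UMIs, counted once per molecule, H2-Aa (3826 ± 2327 CPM) was about level with H2-Ab1 (3726 ± 2775) in migDC, against 9417 and 27467 in cDC2. The 3 sums held 10, 20 and 10 cells and all came from primary tumors.

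The cDC1 label held more of the type 1 markers than cDC2 did, with 157 against 20.4 CPM of Clec9a, 620 against 250.4 of Naaa and 30.6 against 7.48 of Xcr1. It also held 674 CPM of Cd209a, which marks type 2 and monocyte-derived cells, against 1025 in cDC2. B cells carried their markers at 852 to 9066 CPM (4 genes summed, median 4202), and Mac Cd81 held 5943 CPM of C1qb and 2505 of C1qa, complement genes of resident macrophages. In Mon MHC-II the 5 monocyte markers summed to 846 to 3256 CPM and the 8 dendritic markers to 0 to 588. Of the latter, Naaa stood at 229 CPM, near its 250.4 in cDC2 and 261 in Mon Fn1, and Cd209a at 29.7. Xcr1, Clec9a and Flt3 stood at 4.68, 0 and 5.89 CPM, and Ccr7, Fscn1 and Siglech at 5.64, 2.02 and 1.64.

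Among monocytes the class II chains set Mon MHC-II apart from Mon Fn1 in each of the 22 samples that had both, which the name of the label already implies. The log2 ratio was 6.19 ± 1.20 for H2-Ab1 (SD; 14125 against 244 CPM on average) but 1.87 ± 2.12 for H2-DMa (888 against 301 CPM), which was higher in 21 of 22. H2-DMa was thus present in Mon Fn1 (282 ± 153 CPM, n = 54) above the 8.23 to 118 CPM of the 14 background labels while H2-Ab1 (156 ± 160) lay within theirs. Mon Thbs1 held 529 ± 332 CPM of H2-DMa and 350 ± 355 of H2-DMb1, the α and a β chain of the peptide exchange factor.

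Ciita itself was scarce, with 1834 UMIs in 643 of the 23425 immune cells. Its highest label means were 269 ± 384 CPM in cDC1, 194 ± 164 in B cells, 193 ± 137 in cDC2, 153 ± 113 in Mon MHC-II and 151 ± 127 in Mac Cd81. The next label, Mon Thbs1, stood at 28.7 ± 43.1, and 14 T, NK and neutrophil labels at 0 to 20.8 CPM. The 5 labels highest in Ciita were thus the same 5 that were highest in H2-Ab1, in another order, and none of the 25 neighbouring pairs differed by more than 1 SD. Across the 26 labels mean log2 Ciita correlated with H2-Ab1 at r = 0.890, a description over labels that share libraries.

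The β chain of the peptide exchange factor differed in kind between B cells and monocytes, with dendritic labels on both sides. H2-DMb2 made up 88.7% of H2-DMb1 and H2-DMb2 UMIs together in B cells (95% exact interval 87.3 to 90.1, 1748 of H2-DMb2 and 222 of H2-DMb1), 40.0% in cDC2 (38.2 to 41.9), 23.7% in cDC1 (21.04 to 26.6), 9.75% in Mac Cd81 (8.43 to 11.2) and 6.80% in Mon MHC-II (5.99 to 7.70, 235 of H2-DMb2 and 3219 of H2-DMb1). Per sum with at least 10 such UMIs the share ran from 57.1% to 100% in the 30 B cell sums (median 91.6) and from 0% to 24.1% in the 19 Mon MHC-II sums (median 7.69), so these groups did not overlap. In cDC2 15 sums ran from 0% to 57.8% (median 35.3) and in cDC1 5 sums from 19.7% to 60.7% (median 26.2), and each label overlapped both. Migratory dendritic cells were on the B cell side, with a pooled share of 75.9% (66.7 to 83.6, 82 of H2-DMb2 and 26 of H2-DMb1) and 90.5% in the 1 sum with enough UMIs. As levels, H2-DMb2 was 1253 ± 446 CPM in B cells against 577 ± 404 in cDC2 and 61.0 ± 59.6 in Mon MHC-II, and H2-DMb1 was 161 ± 209 in B cells against 989 ± 390 in cDC2 and 812 ± 458 in Mon MHC-II. Every molecule is tagged once at its 3′ end, so that these shares need no correction for length.

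**Figure D3:**
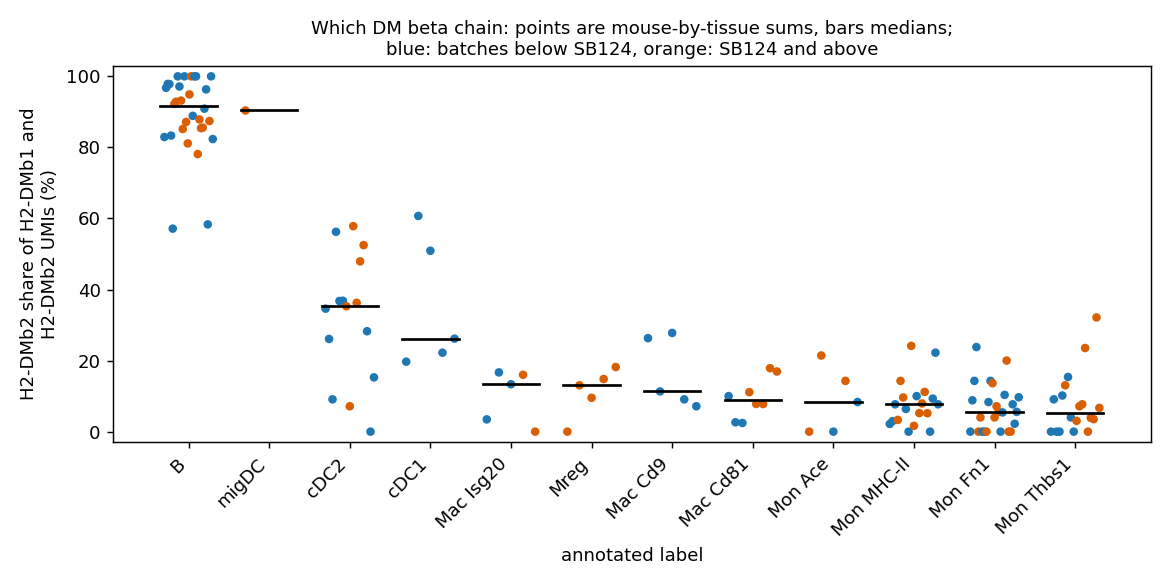
Share of H2-DMb2 in the UMIs of H2-DMb1 and H2-DMb2 together, in percent, for sums with at least 10 such UMIs; each point is 1 sum, bars are medians. B cells (57.1% to 100%) lie above Mon MHC-II (0% to 24.1%), and cDC2 (0% to 57.8%) and cDC1 (19.7% to 60.7%) overlap both.

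Single cells showed the same division. Of 1055 B cells, 408 held UMIs of H2-DMb2 only, 33 of H2-DMb1 only and 55 of both. Of 771 Mon MHC-II cells, 8 held H2-DMb2 only, 318 H2-DMb1 only and 99 both, and in cDC2 (499 cells) the numbers were 49, 151 and 112. Of 117 migDC cells 13 held H2-DMb2 only, 5 H2-DMb1 only and 4 both. In B cells the median share was 85.5% to 100% in each of the 8 tissues, and cDC2 medians were 50.2% in primary tumors (4 sums, 36.3 to 57.8), 36.8% in metastases (5 sums, 7.14 to 56.3), 26.1% in cores (3 sums, 9.09 to 34.6) and 15.3% in relapse-free lungs (3 sums, 0 to 28.3). Primary tumors thus lay above cores and relapse-free lungs and overlapped metastases, a difference that was not tested. All 4 tumor sums came from the sequencing batches labelled SB128 and SB132 and the core and relapse-free sums from batches below SB124, and over tissues the median was 42.1% in the 6 sums from SB124 on and 28.3% in the 9 below, so that tissue and batch cannot be told apart in this order. The genes are close copies, and reads that mapped to more than 1 place had been left out. In the last 500 bases of the transcripts, where the tags fall, 92 of 451 words of 50 bases in H2-DMb1 (20.4%) and 0 of 451 in H2-DMb2 also occur in the other transcript.

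Cd74 could not be compared across tissues without regard to the sequencing batch. The ratio of Cd74 to H2-Ab1 UMIs, over cDC1, cDC2, B, Mon MHC-II and Mac Cd81 cells, was 0.0874 to 0.159 in the 8 batches numbered below SB124 and 0.617 to 1.93 in the 4 batches SB124, SB126, SB128 and SB132. By plate the median was 0.114 (84 plates, 0.0419 to 0.660) and 0.919 (40 plates, 0.294 to 3.30). The ratio of H2-Aa to H2-Ab1 showed much less of this, at 0.269 to 0.376 and 0.371 to 0.448 by batch. Within cDC1 the CPM of H2-Ab1 was 28003 below SB124 and 23823 from SB124 on, while Cd74 was 2941 and 17834.5. In other labels further members also differed, with H2-Ab1 at 12286.5 and 18837 CPM in Mon MHC-II, 1772 and 3618 in Mreg and 1867 and 4139 in Mac Isg20, and H2-DMb1 at 597 and 1267 in Mon MHC-II. The tissues in the batches differ as well. In the metastasis of mouse 24, which had cells of these labels in both kinds of batch, the ratios were 0.168 (5 cells) and 0.617 (32 cells).

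**Figure D4:**
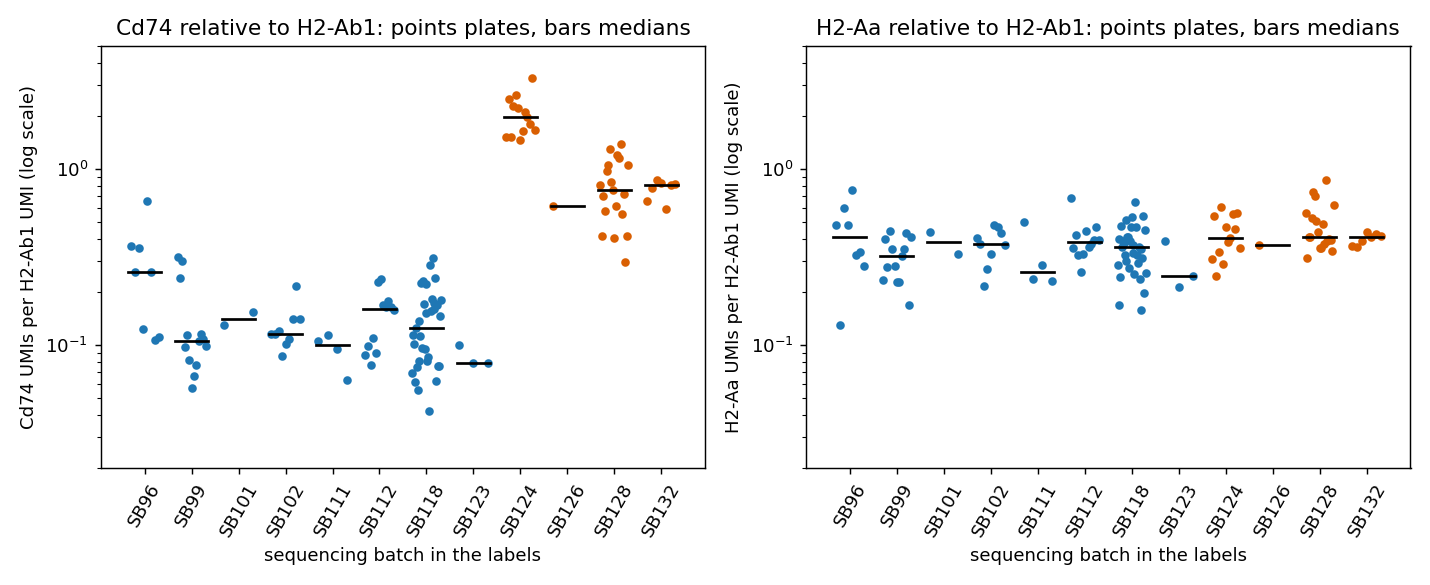
UMIs of Cd74 and of H2-Aa per UMI of H2-Ab1 on each plate, by sequencing batch, on a log axis; cells of cDC1, cDC2, B, Mon MHC-II and Mac Cd81, plates with at least 50 H2-Ab1 UMIs. The Cd74 ratio has a median of 0.114 on plates below SB124 and 0.919 from SB124 on, while the H2-Aa ratio has medians of 0.357 and 0.409.

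All control mice were in SB102 and the Pre-MET mice in SB99 and SB111, while all 4 primary tumors were in SB128 and SB132. The tissue and the batch thus cannot be told apart in any comparison of those groups, for Cd74 or any other member. Cd74 lies on chromosome 18 (60803848 to 60812652, + strand). Mir5107, a microRNA row whose annotated locus (chromosome 18, 60812076 to 60812163, +) lies inside the Cd74 gene on the same strand, held 15077 UMIs, and its ratio to H2-Ab1 moved alike (0.00316 to 0.00908 and 0.0282 to 0.391). What produced the step was not tested. The label means of Cd74 over all batches, such as 9395 ± 10423 CPM in cDC2 and 6410 ± 5183 in B cells, mix both kinds of batch.

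Regulatory T cells (Treg) held more Cd74 than the T cells labelled CD4 Lef1 in the later-numbered batches. The 7 Treg sums were 835 CPM in the primary tumor of mouse 8, 974 in that of mouse 9, 949 in that of mouse 10, 949.5 in that of mouse 38, 558 and 592 in the core and margin of mouse 36, and 46.9 in the core of mouse 17. Only the last came from a batch below SB124. In cells of SB124 and later Treg stood at 700.1 CPM against 64.6 in CD4 Lef1 cells, and in earlier batches at 34.6 against 29.9. After thinning, 21.8% of Treg cells held a Cd74 UMI against 2.23% of the other 9150 T and NK cells, whereas the share with H2-Ab1 was 8.74% and 6.79%. These shares mix the batches unequally, since 147 Treg cells came from SB124 or later and 59 from earlier batches, against 887 and 2139 of the CD4 Lef1 cells. The levels and shares also mix tissues, since most Treg sums came from primary tumors while the other cells were pooled over all tissues.

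Tissues were compared within single labels first. Counts summed per mouse were compared with edgeR's quasi-likelihood test across all genes that passed its filter, with Benjamini-Hochberg adjustment, in 26 comparisons over 9 labels. Of 172 tests of a member, 15 (8.72%) passed an adjusted p of 0.05, where 1.08% of all gene tests over the same comparisons did, and 8 of the 15 were Cd74. In B cells, 1 of 8 members passed between Primary tumor and Pre-MET, namely Cd74 (log2 3.76 ± 0.51 SE, adjusted p = 1.87e-08), where 1.86% of all genes tested passed. The 3 Pre-MET sums were 869.9, 917 and 1633 CPM and the 4 primary tumors 9632, 11257, 13191 and 14358. These groups did not overlap, and they also lay on either side of the batch step. Separation of this kind was not counted over all genes. With the batch kind as a term in the model, chosen after seeing the data, this call was lost (1.58 ± 0.44, adjusted p = 0.178). Pre-MET and primary tumor sums lay in different kinds of batch, so between them the term was estimated only from other tissues, with sums of both kinds.

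Cd74 was likewise the single member called in 5 further comparisons, and none of these calls remained with the batch term. It was lower in cores than in primary tumors in cDC2 (log2 -3.31 ± 0.75 SE, where 0.273% of all genes passed), Mac Cd81 (-2.96 ± 0.56, 7.69%) and Mon Thbs1 (-2.09 ± 0.52, 0.873%). In Mon Fn1 it was higher in tumors than in Pre-MET lungs (3.70 ± 0.78, 6.76%) and lower in metastases than in tumors (-2.03 ± 0.49, 0.542%). With the batch term the first 3 were 0.33 ± 0.57, 0.17 ± 0.70 and 0.15 ± 0.53, and those of Mon Fn1 1.84 ± 0.67 and -1.53 ± 0.43.

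Mon MHC-II cells of primary tumors held more of 6 of the 7 members tested than those of Pre-MET lungs, where 10.3% of all genes passed and 7.01% were called higher. In the Pre-MET lung H2-Ab1 was 6305 CPM in mouse 8, 8563 in mouse 9 and 20453 in mouse 10. In the tumor it was 17822 in mouse 10, 19028 in mouse 9, 22012 in mouse 38 and 25278 in mouse 8. The groups overlapped through the Pre-MET lung of mouse 10, which exceeded the tumor of the same mouse. The difference was 1.37 ± 0.33 on the log2 scale (SE, adjusted p = 0.00202), and without the Pre-MET lung of mouse 8 it was 1.10 with adjusted p = 0.0571. H2-DMb1 rose by 2.62 ± 0.55 (adjusted p = 2.38e-04), H2-DMa by 1.93 ± 0.48, H2-Eb1 by 1.80 ± 0.38, H2-Aa by 1.64 ± 0.36 and Cd74 by 4.33 ± 0.48. The median log2 difference of the 7 members was 1.80 and that of all genes tested 0.47. With the mouse as a block 6 of 8 members passed, as did 277 of 3381 genes. With the batch kind as a term, estimated from other tissues only, Cd74 alone passed, at 1.93, and 1.46% of genes. H2-Ab1 was then 0.85 ± 0.44 and H2-DMb1 1.27 ± 0.73.

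H2-DMb1 in these cells was 113 CPM (mouse 10), 256 (mouse 9) and 588 (mouse 8) in the Pre-MET lung and 1057 (mouse 10), 1413 (mouse 9), 1467 (mouse 8) and 1516 (mouse 38) in the tumor, so that each tumor lay above each Pre-MET lung. How many of all genes were separated like this was not counted. In these Mon MHC-II sums the 8 dendritic markers added up to 36.6 to 588 CPM in Pre-MET lungs and 212 to 524 in tumors, the 4 B cell markers to 0 and 11.0 to 32.6, and the 7 macrophage markers to 293 to 392 and 357 to 908. The 5 monocyte markers were apart, at 1094 to 1536 and 2527 to 2988 CPM. Median UMIs per cell were 930.0 to 1085.5 in Pre-MET samples and 1972 to 3689.5 in tumors. The part of depth and of these markers in the differences was not tested.

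Mon MHC-II cells of metastases held less H2-Ab1, H2-Eb1 and Cd74 than those of primary tumors, a comparison added after seeing the data, with 3 of 7 members and 1.41% of all genes passing (0.828% lower). H2-Ab1 was 7448, 10975, 11949 and 12169.8 CPM in the 4 metastases, all below the lowest tumor (17822), and fell by 1.37 ± 0.30 on the log2 scale (SE, adjusted p = 0.00292). How many of all genes were separated like this was not counted. H2-Eb1 fell by 1.48 ± 0.34 (adjusted p = 0.00619). With the batch kind as a term 0 members passed, and 0.607% of genes did, while H2-Ab1 stood at -1.13 ± 0.33 (adjusted p = 0.075) and the members' median at -1.13 against -1.33 without the term. The 5 monocyte markers in these sums were apart, at 1187 to 2347 CPM in metastases and 2527 to 2988 in tumors, and the 7 macrophage markers were 159.8 to 2341 and 357 to 908. Their part in the difference was not tested. In the batch that held both tissues, SB128, H2-Ab1 was 25278 CPM in the tumor of mouse 8 and 10975 in the metastasis of mouse 36.

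No member passed within a label between Pre-MET and Control, Relapse-free and Control, Metastasis and Distal normal, or MET Core and MET Invasive margin. With edgeR 0 of 88 tests over 6 labels passed, 7 had an unadjusted p under 0.05, and DESeq2 called 0. Of all genes 0.0258% passed in Mon Fn1 between Pre-MET and Control and 0.0231% in Mac Cd9 between Relapse-free and Control, and none in the other comparisons of these kinds. Nor did a member pass between metastases and tumors in B cells (0.0286% of all genes), cDC2 (1.23%) and Mon Thbs1 (0.235%), or between cores and tumors in Mon Fn1 (0.361%). In those 4 comparisons 5 of 29 tests had an unadjusted p under 0.05, and DESeq2 called 0. B cells of metastases and distal normal lung, for instance, held 9094 to 13153 CPM of H2-Ab1 (n = 6, median 10958) and 5487 to 15480.1 (n = 5, median 12891), and the log2 difference was 0.23 ± 0.28 (SE, adjusted p = 0.901). H2-Ab1 in Mon Fn1 was lower in Pre-MET than in control lungs by a fitted log2 value of -2.05 ± 0.71 (adjusted p = 0.329). Among batches below SB124 alone, which hold all samples of both groups, the value was -2.15 ± 0.50 (adjusted p = 0.0425). It was the 1 call among 5 members there, where 8 of 2897 genes passed. Over all tissues the mean H2-Ab1 level of Mon Fn1 lay within the range of the background labels.

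Over whole lineages the mix of labels and the level per cell cannot be told apart. All monocyte labels of a sample were summed, and 18 comparisons over dendritic cells, monocytes and macrophages gave 29 calls in 132 tests of a member (21.97%), 3 of them Cd74, where 2.17% of all gene tests passed. B cells are 1 label and are given above.

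Monocytes of metastases held more class II transcripts than those of the distal normal lung. H2-Ab1, H2-DMb1 and H2-Eb1 passed among 7 members tested, where 1.45% of all genes passed, each of them higher. H2-Ab1 was 821 to 4339 CPM in the 13 metastases (median 1666) and 160.3 to 3324 in the 14 distal normal samples (median 548), and rose by 1.34 ± 0.36 on the log2 scale (SE, adjusted p = 0.0314). H2-DMb1 was 110.4 to 424 CPM (median 255) against 22.2 to 226 (median 105), and rose by 1.26 ± 0.31 (adjusted p = 0.0106). H2-Eb1 was 215 to 1132 CPM (median 568) against 26.5 to 786 (median 152), and rose by 1.34 ± 0.36 (adjusted p = 0.0276). The groups overlapped in all 3 genes, but within each mouse the order was nearly constant.

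Of the 13 mice with both tissues, H2-Ab1 and H2-DMb1 were higher in the metastasis in 13, H2-Aa and H2-Eb1 in 12, Ciita in 11, H2-DMa in 10, and Cd74 and H2-DMb2 in 9. These directions were not counted over all genes. With the mouse as a block, 5 of the members passed (3.96% of all genes in that fit), adding H2-Aa at 1.02 ± 0.24 and Cd74 at 0.85 ± 0.21, and H2-Ab1 was 1.50 ± 0.21 (adjusted p = 5.76e-06). The same 3 genes passed with the batch kind as a term (1.86% of genes). H2-DMb1 and H2-Eb1 passed within batches below SB124 (1.23%), and 0 members passed within SB124 and above, where 5 genes in all did (0.0754%) and the 8 members were higher in metastases, H2-Ab1 by 1.23 ± 0.48 (adjusted p = 0.639). With DESeq2, and with its size factors in edgeR, 1 member passed in place of 3.

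**Figure D5:**
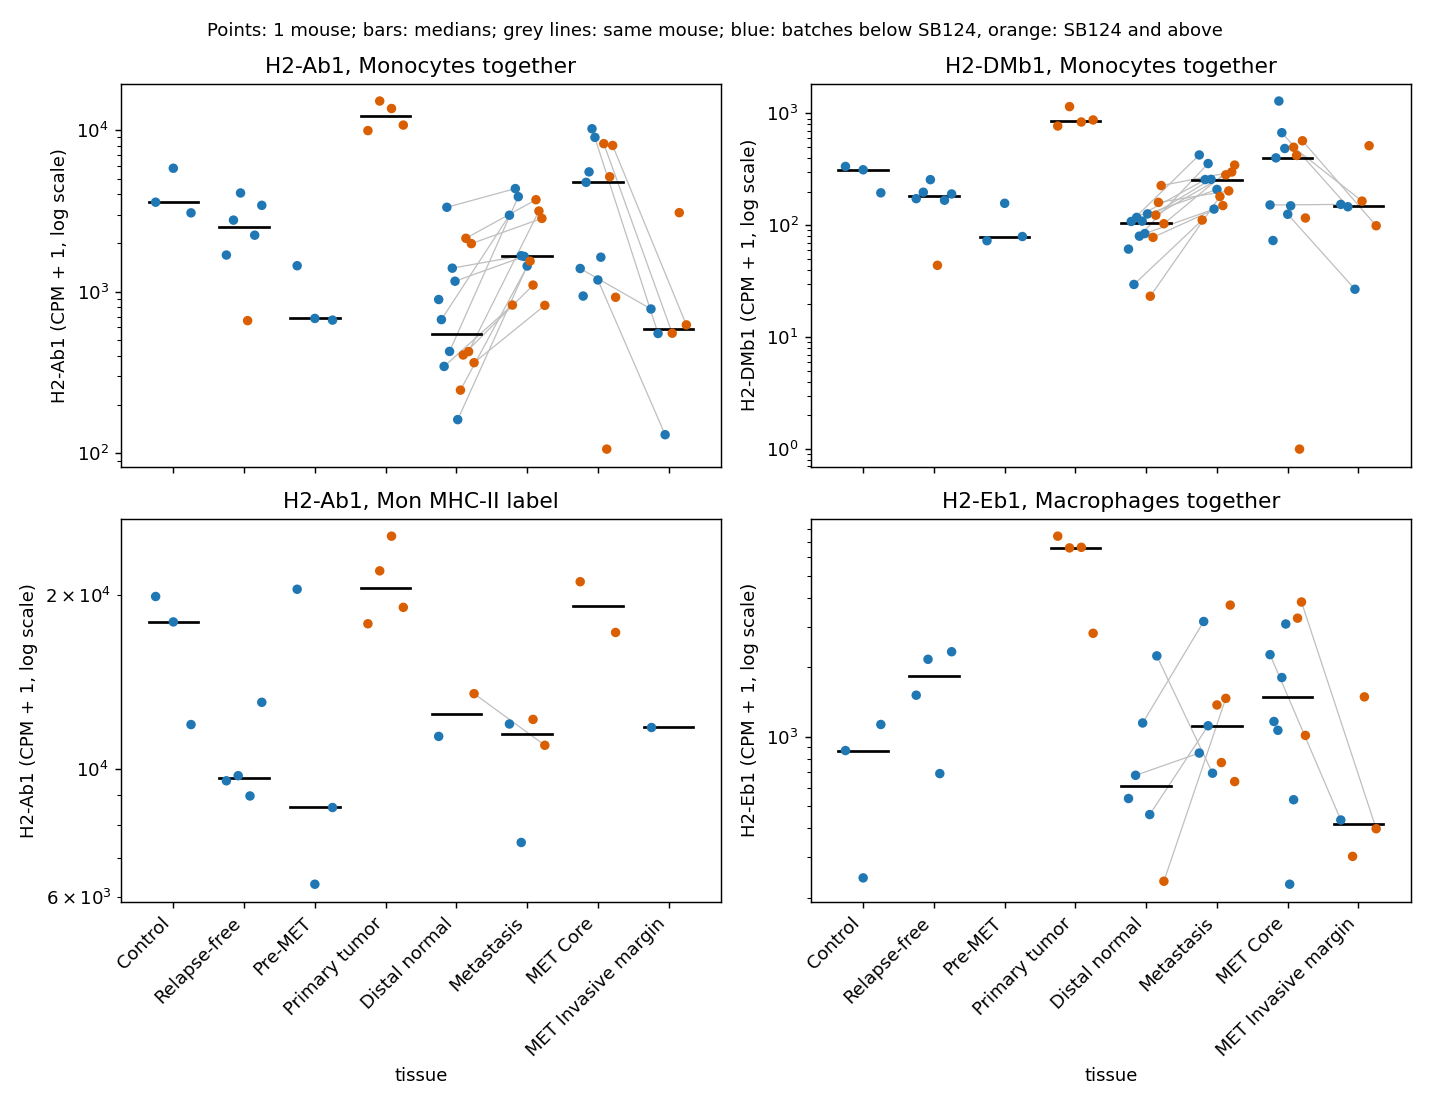
H2-Ab1 and H2-DMb1 in monocytes, H2-Ab1 in Mon MHC-II cells and H2-Eb1 in macrophages, in CPM on a log axis, by tissue; each point is 1 mouse, grey lines join samples of 1 mouse, blue marks batches below SB124 and orange SB124 and above. In monocytes H2-Ab1 is higher in the metastasis than in the distal normal lung in 13 of 13 mice, and the 4 primary tumors (9916 to 15112 CPM) lie above all metastases.

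Mon MHC-II cells made up 2.99% to 17.6% of monocytes in metastases (median 8.14) and 2.08% to 18.2% in distal normal lung (median 5.73). The paper reports more Mon Thbs1 cells in metastases than in distal normal lung. Shares of the other monocyte labels are not given here, and the part of the label mix in the difference was not tested. Within Mon Fn1, the label with most monocytes, H2-Ab1 was higher in the metastasis in 10 of 12 mice and H2-DMb1 in 10 of 12, and the fitted difference for H2-Ab1 was 0.67 ± 0.40 on the log2 scale (adjusted p = 0.999). Directions of this kind were not counted over all genes. The mean H2-Ab1 level of Mon Fn1 (156 CPM) lay within the 23.2 to 250 CPM of the background labels. In Mon Fn1 it was 2.27 ± 0.70 within SB124 and above and 0.34 ± 0.39 below SB124, neither of which passed, and the difference between these was not tested. Dendritic markers in monocytes summed to 94.3 to 417 CPM in metastases and 122 to 612 in distal normal lung, and B cell markers to 0 to 92.8 and 0 to 100.1.

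In monocytes of Pre-MET and control lungs no member passed, with 4 of 7 at an unadjusted p under 0.05 (0.0537% of all genes passed). H2-Ab1 was 3070, 3574 and 5800 CPM in the 3 control mice and 665, 681 and 1445 in the 3 Pre-MET mice. The groups did not overlap, and the fitted log2 difference was -2.10 ± 0.77 (SE, adjusted p = 0.437). Separation of this kind was not counted over all genes. The summed macrophage markers of these sums were 298 to 693 CPM in control and 1351 to 2493 in Pre-MET lungs, the monocyte markers 1649 to 1722 and 2523 to 2651, and Mon MHC-II cells were 12.9% to 20.1% and 5.15% to 7.84% of the monocytes. None of these ranges overlapped, and their part in the difference was not tested. With only these tissues in the fit 5 members passed, as did 4.32% of all genes, while DESeq2 over all tissues called 0. The Pre-MET cells came from SB99 and SB111 and the control cells from SB102, so that batch and tissue cannot be told apart. Between relapse-free and control lungs no member passed in monocytes (0.0179% of all genes), nor in dendritic cells between cores and tumors (0.255%) or metastases and tumors (0.0463%). Over the 9 lineage comparisons without a call, edgeR gave 11 of 68 tests an unadjusted p under 0.05 and DESeq2 called 0.

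Monocytes of the metastasis core held more H2-Ab1 than those of the invasive margin, the band of lung around the lesion. The 13 cores ran from 105 to 10181 CPM (median 4743) and the 6 margins from 129 to 3079 (median 586), with overlap. H2-Ab1 rose by 2.37 ± 0.53 on the log2 scale (SE, adjusted p = 0.0217), as 1 of 7 members, where 0.358% of all genes passed. With only these 2 tissues in the fit 0 members passed. In mouse 17 core and margin held 1389 and 779 CPM, in mouse 26 10181 and 549, in mouse 28 1179.7 and 129, in mouse 31 8232 and 552, and in mouse 36 8025 and 621. The core was thus higher in 5 of 5 mice, as it also was for H2-Aa, H2-Eb1, Cd74 and Ciita. A count of this kind over all genes was not made. With the mouse as a block 4 members passed (4.39% of all genes in that fit), with H2-Ab1 at 3.17 ± 0.45, H2-Aa at 2.66 ± 0.48, H2-Eb1 at 2.45 ± 0.52 and Cd74 at 1.93 ± 0.38.

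The same 4 genes passed within batches below SB124 (2.16% of all genes), H2-Ab1 at 2.82 ± 0.61, and 0 of the members, and 0 of all genes, within SB124 and above, where H2-Ab1 was 2.04 ± 0.68 (adjusted p = 0.64), H2-Eb1 1.39 ± 0.67 and H2-Aa 1.31 ± 0.68. Cores and margins came mostly through the gate without CD45, and their sums held 11 to 225 and 18 to 167 cells. The 8 dendritic markers summed to 99.9 to 419.9 CPM in core monocytes and 73.3 to 388 in margin monocytes. Mon MHC-II cells were 1.19% to 33.3% of monocytes in cores (median 9.09) and 0% to 33.3% in margins (median 9.97). In the paper Mon Thbs1 made up more of the core monocytes and Mon Fn1 more of the margin monocytes. The part of the label mix in the difference was not tested.

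Primary tumors held the monocytes richest in class II. H2-Ab1 was 665, 681 and 1445 CPM in the 3 Pre-MET lungs and 9916, 10726, 13586 and 15112 in the 4 tumors, and H2-Eb1 was 140.1, 256 and 278 against 3527, 4465, 4711 and 5271. The groups were far apart, though separation was not counted over all genes. Of the members tested 7 of 7 passed, where 13.5% of all genes passed and 5.43% were called higher: H2-Eb1 at log2 4.30 ± 0.78 (SE, adjusted p = 6.86e-05), H2-Aa at 3.92 ± 0.80, H2-Ab1 at 3.73 ± 0.81, H2-DMb1 at 3.13 ± 0.59, Ciita at 2.77 ± 0.92, H2-DMa at 2.06 ± 0.46 and Cd74 at 6.19 ± 1.39. With the mouse as a block 8 of 8 members passed, as did 1629 of 7141 genes. With the batch kind as a term, estimated from other tissues only, the 6 other than Ciita passed (7.36% of genes). H2-Ab1 was then 3.86 ± 0.80, and Cd74 fell to 3.00 ± 0.76. Ciita also lost its call without the Pre-MET lung of mouse 9 or 10 or the tumor of mouse 9 or 38 (adjusted p of 0.0641 to 0.152). The summed macrophage markers of these monocyte sums were 1351 to 2493 CPM in Pre-MET lungs and 602 to 1227 in tumors, and the monocyte markers were 2523 to 2651 and 3106 to 3363. Their part in the difference was not tested. Mon MHC-II cells were 36.3% to 56.7% of monocytes in tumors (median 42.6) and 5.15% to 7.84% in Pre-MET lungs (median 6.44).

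Monocytes of metastases, in a comparison added after seeing the data, held less than those of primary tumors in 6 of 7 members, where 2.17% of all genes passed and 0.967% were called lower. H2-Eb1 fell by 3.04 ± 0.44 on the log2 scale (SE, adjusted p = 6.14e-06), H2-Aa by 2.70 ± 0.46, H2-Ab1 by 2.55 ± 0.47, Ciita by 2.07 ± 0.61, H2-DMb1 by 2.01 ± 0.37 and H2-DMa by 1.61 ± 0.30. All 13 metastases lay below all 4 tumors in each of these except Ciita, whose adjusted p of 0.0467 rose to between 0.0809 and 0.186 when any 1 of the tumors was left out. How many of all genes were separated in this way was not counted here. Within SB124 and above, 7 of 8 members passed, H2-Ab1 at -2.89 ± 0.51, where 1.85% of all genes did, and with the batch term the 5 other than Ciita did (2.40%). The monocyte markers of these sums were 3412 to 5454 CPM in metastases and 3106 to 3363 in tumors, without overlap, and the macrophage markers had medians of 1949 and 1042. Their part in the difference was not tested.

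Cores were lower than tumors in H2-Eb1 (log2 -2.31 ± 0.45 SE, adjusted p = 0.00316), H2-Aa, H2-Ab1, H2-DMb1 and H2-DMa, 5 of 7 members, where 1.58% of all genes passed and 0.734% were called lower. All 13 cores lay below all 4 tumors in H2-Aa and H2-Eb1, while the highest core H2-Ab1 (10181 CPM) exceeded the lowest tumor (9916). Such separation was not counted over all genes. Without any 1 of the tumors 1 or 2 members passed, H2-Eb1 among them each time, and within SB124 and above 0 did, where 0.271% of all genes passed and H2-Eb1 was -2.18 ± 0.54 (adjusted p = 0.0522), H2-Aa -1.99 ± 0.56 and H2-DMb1 -1.69 ± 0.46. In the shared batch SB128 monocytes held 13586 CPM of H2-Ab1 in the tumor of mouse 8 and 8025 and 921 in the cores of mice 36 and 37.

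Macrophages of metastases held less H2-Eb1 (log2 -1.92 ± 0.49 SE, adjusted p = 0.0081), H2-DMb1 (-1.74 ± 0.46) and Ciita (-2.70 ± 0.80) than those of tumors, 3 of 7 members, where 4.75% of all genes passed (1.51% lower), and H2-Eb1 and H2-DMb1 also passed within SB124 and above, as 2 of 8 members where 5.13% of all genes passed. The 4 tumors held 2809, 6590.5, 6628 and 7410.5 CPM of H2-Eb1 and the 9 metastases 638 to 3721 (median 1115), overlapping through the tumor of mouse 9. Without the tumor of mouse 8 or of mouse 38, 1 member passed. The macrophage markers of these sums did not overlap, at 3209 to 8562 CPM in metastases and 12903 to 15248 in tumors, and the monocyte markers had medians of 1092 and 606. Their part in the difference was not tested. Cores were lower than tumors in H2-Eb1 (-1.72 ± 0.47, adjusted p = 0.0254; 3.22% of all genes passed), which was lost without the tumor of mouse 8, 10 or 38, with the batch kind as a term (-1.45 ± 0.51, adjusted p = 0.128; 2.53% of genes) and within SB124 and above (-1.11 ± 0.56, adjusted p = 0.397; 1.62%). The macrophage markers were 2303 to 14122 CPM in core macrophages (median 4239), against a median of 14067 in tumors. The monocyte markers had medians of 1523 and 606. The part of these markers in the core difference was not tested. Mac Cd81 cells were 69.6% to 88.1% of macrophages in tumors (median 83.0) and had medians of 3.56% to 18.8% in the 6 other tissues with macrophage sums. Within Mac Cd81, H2-Ab1 was 6948 to 19979 CPM in 4 tumors and 10760.5 to 19268 in 3 cores, and the fitted difference was -0.44 ± 0.39 (adjusted p = 0.518).

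The remaining call in macrophages was Cd74, higher in metastases than in distal normal lung at log2 2.63 ± 0.79 (SE, adjusted p = 0.0281, 1 of 7 members, 7.65% of all genes), which was lost both with the batch term (0.54 ± 0.49) and with the mouse as a block (0.84 ± 0.42). Within batches below SB124 the 1 call was another gene, H2-DMa at 2.19 ± 0.58 (adjusted p = 0.0148, 2.2% of all genes), with Cd74 at 0.65 ± 0.47. In all dendritic cells, Cd74 (3.79 ± 0.92) and H2-DMb2 (3.18 ± 0.80, adjusted p = 0.02) passed between Primary tumor and Pre-MET, as 2 of 8 members where 2.64% of all genes passed (1.69% higher). H2-DMb2 was 0, 37.5 and 379 CPM in the 3 Pre-MET lungs and 340.3, 725, 888 and 908 in the tumors. Cells labelled migDC were 0% to 7.69% of the dendritic cells in Pre-MET lungs and 23.1% to 33.3% in tumors, and their part in the difference was not tested. Neither passed without the Pre-MET lung of mouse 10, 1 passed without that of mouse 8 or 9 or the tumor of mouse 10, and 0 passed with the batch term (0.348% of genes; Cd74 at 0.64 ± 0.61 and H2-DMb2 at 2.76 ± 0.91), while with the mouse as a block H2-Eb1 joined them (3.03% of genes). H2-Ab1 in dendritic cells had group means from 16099 CPM (margin, 1 sum) to 24903 CPM (metastasis, 10 sums from 5641 to 44959) over the 8 tissues. Its fitted differences did not pass in any of the 6 comparisons.

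As a share of all immune UMIs of a sample, the 7 members other than Cd74 took 1.91% to 2.62% in the 4 primary tumors (median 2.38) and had medians of 0.270% in Distal normal, 0.691% in Metastasis, 0.551% in MET Core, 0.287% in MET Invasive margin, 0.519% in Control, 0.447% in Relapse-free and 0.300% in Pre-MET samples. The highest sample outside the tumors was a core with 1.33%. This share depends on which cells were sorted as well as on the level in each.

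The 30 further genes of the pathway were listed with earlier results of these data known, and their counts stand beside the share of all genes that passed in the same comparison. Between Primary tumor and Pre-MET, 4 of 20 tested passed in Mon MHC-II (10.3% of all genes), each higher in tumors, among them Lgmn, the asparaginyl endopeptidase that begins invariant chain removal, at log2 4.26 ± 0.86 SE, and the cathepsins Ctsd (3.12 ± 0.90) and Ctsz (1.46 ± 0.47). None of the 7 calls within labels remained with the batch term, while 9 of 11 within lineages did in number. Calls over all genes in these labels fell as well. They went from 372 to 53 of 3623 in Mon MHC-II (tumor against Pre-MET) and from 98 to 0 of 1275 in Mac Cd81 (core against tumor). In cDC2 (metastasis against tumor) 18 became 0 of 1467. Between metastasis and distal normal lung they went from 81 to 104 of 5585 in monocytes and 330 to 290 of 4315 in macrophages. In dendritic cells (tumor against Pre-MET) 114 became 15. These counts do not separate pathway genes from all genes. In monocytes Lgmn passed together with the class II genes, higher in metastases than in distal normal lung (1.36 ± 0.37, 1 of 18 tested; 1.45% of all genes), higher in tumors than in Pre-MET lungs (3.70 ± 0.73, with Ctsl at 2.16 ± 0.65) and lower in metastases than in tumors (-1.81 ± 0.43, 1 of 18; 2.17%). The 2 of 18 between tumors and Pre-MET lungs were no larger a share than the 13.5% of all genes. In macrophages Lgmn (2.15 ± 0.54), Ctsb (1.45 ± 0.42) and Ctss (1.28 ± 0.34), the protease that completes invariant chain removal, were higher in metastases than in distal normal lung (3 of 16; 7.65% of all genes), while Ctsd was higher in metastases (2.28 ± 0.49, 1 of 16; 4.75%) and cores (1.78 ± 0.47, 1 of 16; 3.22%) than in tumors. Macrophage Ctsd was also lower in cores than in margins (-1.83 ± 0.40, 1 of 16, where 10 of 4315 genes passed). In all dendritic cells Lgmn was higher in tumors than in the 3 Pre-MET lungs (7.34 ± 1.83, 1 of 20, where 114 of 4315 genes passed). Its mean in migDC was 451 CPM. That label made up 23.1% to 33.3% of dendritic cells in tumors and 0% to 7.69% in Pre-MET lungs, and its part in the difference was not tested. In Mac Cd81 cells Lgmn (-2.97 ± 0.51) and Ctsb (-1.86 ± 0.43) were lower in cores than in tumors (2 of 12, 7.69% of all genes).

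The inhibitor of H2-DM, the dimer H2-DO, followed B cells. H2-Ob was 666 ± 290.0 CPM there, 262 ± 142 in cDC1 and 89.6 ± 81.6 in cDC2, and its partner H2-Oa 361 ± 191 in B cells. H2-Oa passed once, lower in cDC2 of metastases than of tumors (-3.02 ± 0.75, adjusted p = 0.0335, 1 of 14 tested, 1.23% of all genes), a call lost with the batch term. H2-Eb2, a further β chain locus, was highest in migDC (193 ± 82.5 CPM, n = 3), followed by B cells (50.3 ± 68.9). Cd83, which keeps class II at the surface, was 1631 ± 414 CPM in migDC, 488 ± 189 in cDC1 and 424 ± 298 in B cells, and costimulatory Cd40 was 442 ± 238 in migDC. Ctss was highest in Mreg (12518 ± 4296), a label with 2898 CPM of H2-Ab1, above Mac Cd81 (6221 ± 4045) and Mon MHC-II (4449.9 ± 713).

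The genes most like the 8 members across the 26 labels, by Pearson's r of the mean log2 level with the mean of the members among 9040 genes with at least 50 CPM in 1 label, were Mir5107 (0.919), Pkib (0.876), Ifi30 (0.866), Slamf9 (0.864), Fgd2 (0.863), Ly86 (0.861), Cd83 (0.859), Scpep1 (0.854), Plekho1 (0.848) and Gm6377 (0.835). Ifi30 is the lysosomal thiol reductase that opens disulfide bonds of antigens. The members themselves had r from 0.897 (H2-DMb2) to 0.985 (H2-Ab1), and the lowest r between 2 members was 0.743, between H2-DMb1 and H2-DMb2. The labels share samples and plates, and these values are a description.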

How the data were processed

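Cells had been sorted into 384-well plates, and the authors (whose processing notes also name bcl2fastq 2.15.0.4) mapped the reads to mm10 with HISAT, left out reads with several positions, assigned reads to exons of the UCSC annotation (version not given in the sources used here) and collapsed UMIs. The deposited values are UMI counts per gene and well, and a metadata table gives each annotated cell its mouse, tissue and label, made by the authors through metacell clustering of cells with at least 500 UMIs. Doublets were excluded by the sort gates and no caller was run here. The 3′ tag makes counts independent of transcript length.

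Of 56832 wells, 24020 were annotated, and 595 cells labelled Erythrocytes, Outlier or Tumor were left out, which left 23425. Counts were summed per mouse, tissue and label, or per lineage, with at least 10 cells, and given as CPM. Tissues with at least 3 sums were compared with edgeR 4.0.16 (limma 3.58.1, R 4.3.3): filterByExpr, TMM, glmQLFit and glmQLFTest over all groups of a set, with Benjamini-Hochberg adjustment at 0.05 over all genes tested. DESeq2 1.42.0 was an alternative. Mice are the replicates, and a mouse that gave several tissues links their sums. Whether sums of 1 mouse deviate together was checked over genes: for monocytes r was 0.0164 to 0.583 (median 0.107) between metastasis and distal normal lung in 13 mice and 0.00346 to 0.416 (median 0.127) between core and margin in 5. The pairing comes from the mouse numbers in the labels. Shares of cells were compared after thinning each cell to 500 UMIs. Python 3.11.15 with numpy 2.4.6, scipy 1.17.1, pandas 2.3.3 and matplotlib 3.10.9 was used, and the fits were tested on simulated data. Gene positions are from GENCODE vM21.

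The text names all 8 members, pathway genes that passed or whose role is described (1 is not reported here), and the 10 genes most like the members across labels. The members and lists were chosen with earlier results of these data known. Metastasis against Primary tumor and the settings on sequencing batch were added after the data were seen. Alternatives were other normalization, filters, cell and UMI minimums, the mouse as a block, only the 2 tissues compared, and each mouse left out in turn.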

Additional observations from a re-analysis of the deposited data

Results flagged for a closer look

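In groups of 4 to 10 sums with a mean of at least 1000 CPM, 19 of 107 (17.8%) held a sum far from the others by Dixon's criterion. Its chance rate of about 1 in 20 holds for independent, normally distributed values. These were CPM without a log scale, and lineage groups repeat cells of label groups, so that rate is no reference here. Of the 19 sums, 11 were Cd74. It was high in B cells of relapse-free mouse 35 (8190 CPM, others at most 3659), in metastases of mouse 33 in cDC2 (38700 CPM, 10 cells), Mon Thbs1 (11500 CPM) and all dendritic cells (37600 CPM), and in the margin of mouse 33 in Mreg (11600 CPM) and monocytes (8580 CPM). It was also high in cores of mouse 31 in dendritic cells (26900 CPM) and macrophages (19500 CPM) and in Mon Thbs1 of the core of mouse 36 (4080 CPM). Each of these sums came from SB124 or SB128, while their groups also held sums of earlier batches. In the primary tumor of mouse 9 Cd74 was low in Mac Cd81 (7200 CPM) and macrophages (7420 CPM), as was H2-Eb1 in Mac Cd81 (2850 CPM, others at least 7054).

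The other outlying sums were Mon Thbs1 of mouse 26, with H2-Ab1 at 11300 CPM in the metastasis and 14300 CPM in the core and H2-Aa at 3700 CPM and 5190 CPM, all in SB118. H2-Aa stood at 7100 CPM in B cells and 5950 CPM in macrophages of the metastasis of mouse 36, and H2-Eb1 at 1400 CPM in Mon Thbs1 of the primary tumor of mouse 8.

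Some class II members were held by a larger share of cells outside the comparisons than of T and NK cells after thinning, with intervals apart. Members not named below did not exceed the T and NK share by this rule. Of 94 cells labelled Tumor, 12.8% held H2-Aa, 24.5% H2-Ab1, 13.8% H2-Eb1, 23.4% Cd74 and 5.32% H2-DMb1. Of 165 labelled Outlier, 9.7% held H2-Aa, 15.2% H2-Ab1, 9.7% Cd74, 9.09% H2-DMa and 4.24% H2-DMb1, and of 336 labelled Erythrocytes 5.06% held H2-Aa and 1.79% H2-DMb2. These cells also held transcripts of other cell types. The neutrophil marker S100a8 was 39356 CPM in Erythrocytes, and the epithelial marker Sftpc 11578 CPM in Outlier cells. The macrophage marker C1qb was 940 CPM in Outlier and 228 in Tumor cells. The source of the class II UMIs was not tested.

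Between metastasis and distal normal lung, H2-DMb1 was higher in the metastasis in monocytes of 13 of 13 mice and lower in B cells of 3 of 3. The B cell values rest on few UMIs. They were 85.9 CPM in distal normal lung and 70.8 in the metastasis of mouse 36. In mouse 37 they were 144 and 0 CPM, in sums of 13892 and 11876 UMIs. The difference between these effects was not tested, and 88 pairs of effects were examined.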

How the results depend on the processing

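Across 44 comparisons, 575 counts of called members under alternatives included 487 within 1.5 times the reported count and 88 that moved. Counts below stand without the share of all genes called under the same setting. They do not separate a change in the members or pathway genes from a change in calls in general. Of 598 log2 differences of called members 595 kept their direction and 471 their side of the threshold, and the cause of the changes was not tested unless named. The 3 that reversed were Cd74 between core and primary tumor with the batch term, at 0.33 in cDC2, 0.15 in Mon Thbs1 and 0.17 in Mac Cd81.

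With the batch term, 0 members were called in B cells (reported 1), cDC2, Mac Cd81 and Mon Thbs1 for core against tumor, Mon Fn1 in both its called comparisons, dendritic cells for tumor against Pre-MET (2), and macrophages for metastasis against distal normal and core against tumor, while Mon MHC-II kept 1 of 6 in number for tumor against Pre-MET and 0 of 3 for metastasis against tumor. Pathway calls within labels went from 7 to 0. Within SB124 and above 0 were called in Mon Fn1 (metastasis against tumor), monocytes (metastasis against distal normal, core against margin, core against tumor) and macrophages (core against tumor). Below SB124 there was 1 in Mon Fn1 (Pre-MET against control) and 4 in monocytes (core against margin).

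With the mouse as replicate block 5 members were called in monocytes for metastasis against distal normal (3 reported) and 4 for core against margin (1), and 0 in macrophages for metastasis against distal normal (1). The paired fits changed no other count by over 1.5 times. With DESeq2 and with RLE size factors alike, 0 were called in Mon Fn1 (metastasis against tumor), Mon Thbs1 (core against tumor) and macrophages (metastasis against distal normal), and 1 in monocytes (metastasis against distal normal). For monocytes, core against tumor, DESeq2 gave 2 and RLE 3, and RLE gave 0 in dendritic cells (tumor against Pre-MET).

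Without a filter on low counts, counts rose to 5 in Mon MHC-II (metastasis against tumor), 3 in monocytes (core against margin), 5, 1, 5 and 7 in macrophages (metastasis against distal normal, core against margin, core against tumor, metastasis against tumor), 1 in cDC2 (metastasis against tumor), 1, 1 and 4 in dendritic cells (metastasis against distal normal, core against tumor, tumor against Pre-MET), and 19 for pathway genes in lineages (11). With at least 5 cells a sum 0 were called for core against tumor in cDC2, Mon Thbs1 and Mac Cd81, 1 in Mon Fn1 and 2 in macrophages, with 1 in dendritic cells (tumor against Pre-MET), 3 in monocytes (core against margin) and 3 in macrophages (metastasis against distal normal). With at least 20 cells there were 1 in dendritic cells (core against tumor), 2 in monocytes (core against margin) and 5 in macrophages (metastasis against tumor). With cells of at least 1000 UMIs monocytes gave 1 (metastasis against distal normal) and 1 (core against tumor), and macrophages 0 (core against tumor).

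With only the 2 tissues in the fit, core against tumor gave 2 in cDC2, 0 in Mon Thbs1 and 1 in monocytes, Mon MHC-II gave 1 (metastasis against tumor), dendritic cells 5 (tumor against Pre-MET), monocytes 5 (Pre-MET against control), 1 (metastasis against distal normal) and 0 (core against margin), and pathway genes 12 in labels and 22 in lineages. Leaving out 1 mouse gave 0 to 1 for Mon Fn1 (metastasis against tumor, 0 without the tumor of mouse 9 or 38), Mon Thbs1 (core against tumor, 0 without the tumor of mouse 8, 9 or 10), cDC2 (core against tumor, 0 without the core of mouse 23 or 30 or any tumor) and macrophages (core against tumor), 3 to 4 and 5 to 6 for Mon MHC-II, 0 to 2 for dendritic cells, 1 to 3 for macrophages (metastasis against tumor), and 1 to 2, 5 to 5 and 6 to 8 for monocytes (core against tumor, metastasis against tumor, tumor against Pre-MET). Label means stayed within 1 SD in 364 of 376 values, and the 12 that moved were in cDC1, migDC and Mreg, which had 5, 3 and 14 sums. Low UMI numbers limit Ciita and H2-DMb2 most.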
